A study of Mus musculus with 25 samples.

Results

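The 10 genes described here are Trp53, Cdkn1a, Mdm2, Ccng1, Trp53inp1, Bax, Bbc3, Bcl2, Bcl2l1 and Mcl1, a set drawn from the p53 response, cell cycle arrest and the BCL2 family. They were found by gene symbol among the 17885 genes that occur in at least 1 of 4 tables of mouse islet mRNA, and all 10 had values in every table. Values are FPKM (sequenced fragments per length of transcript and size of library) from 19 libraries, each pooled per the labels from at least 3 mice. The 2 BcBKO and 2 flox/flox libraries came from mice kept for 3 months on HFD, a high-fat diet; BcBKO is a beta-cell-specific ablation made with Pdx1-cre, a driver that is active in the pancreatic lineage. Another table holds 2 KO_REG3B-Fc, 2 KO_PBS and 2 CTR_PBS libraries; REG3B is a secreted lectin, PBS is saline, and the gene that KO stands for is not named in the labels. The last tables hold 2 db_REG3B and 2 db_GFP libraries, whose allele and route of delivery the labels do not give, and 5 libraries labelled WT. The 6 chow libraries were not analysed here. Nothing says whether the replicates of a group are separate pools of mice, so p-values measure the spread between these libraries.

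Trp53 encodes p53, a transcription factor that DNA damage and other stresses stabilise. It is controlled mainly through degradation of its protein, for which Mdm2 encodes the ubiquitin ligase and is itself a p53 target. Cdkn1a encodes p21, an inhibitor of cyclin-dependent kinases that halts the cell cycle, while Ccng1 (cyclin G1) and Trp53inp1 are other targets of p53. Bax and Bbc3 (PUMA) promote the opening of the outer mitochondrial membrane that starts the intrinsic death pathway, and Bcl2, Bcl2l1 (BCL-XL in its main form) and Mcl1 oppose it. Beta cells divide rarely in adult islets, and their loss by apoptosis is among the processes studied in diabetes.

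The islet identity of the libraries was plain, since 9 beta cell markers, insulin genes included, took 28.6 to 71.7% of summed FPKM. Transcripts of other cells varied with the groups. Values of marker lists stand beside the results, though not every list in every comparison. Between 10402 and 12553 genes per library reached 1 FPKM, and the depth behind the values is unknown. Each comparison set 2 libraries against 2 with limma, a linear model across all genes with a moderated variance, on log2(FPKM + 1). Before testing, each library was divided by its median ratio to the average library of its table (median scaling). On FPKM as deposited the median gene itself moved by -0.44 on the log2 scale for KO_PBS against CTR_PBS, by 0.53 for KO_REG3B-Fc against KO_PBS, and by 0.080, 0.086 and -0.059 for BcBKO against flox/flox, KO_REG3B-Fc against CTR_PBS and db_REG3B against db_GFP. Changes below are log2 changes after median scaling, a gene passed at an adjusted p (Benjamini-Hochberg over all genes tested) under 0.05, and values after ± are standard errors of the change. The pseudocount of 1 shrinks the change of genes of low FPKM.

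The genes lie on different chromosomes except for 2 pairs. In GRCm38.p6 they are the protein-coding genes Trp53 (Entrez 22059, chromosome 11, 69580348 to 69591873), Ccng1 (Entrez 12450, chromosome 11, 40748552 to 40755309), Cdkn1a (Entrez 12575, chromosome 17, 29090979 to 29100722), Mdm2 (Entrez 17246, chromosome 10, 117688875 to 117710758), Bax (Entrez 12028, chromosome 7, 45461695 to 45466903), Bbc3 (Entrez 170770, chromosome 7, 16308398 to 16318334), Trp53inp1 (Entrez 60599, chromosome 4, 11156441 to 11174379), Bcl2 (Entrez 12043, chromosome 1, 106538176 to 106714290), Bcl2l1 (Entrez 12048, chromosome 2, 152758732 to 152833803) and Mcl1 (Entrez 17210, chromosome 3, 95656944 to 95663179). Exons of 3 members overlap those of other genes in GENCODE M21, and the strand setting of the counting is not given in the sources used here. The overlap is 7.68% of the exonic bases of Cdkn1a (with AC167363.2 on the other strand), 12.2% of Bax (with Gm45808 on the same strand) and 6.09% of Bcl2 (with D630008O14Rik on the other strand), so reads there may be shared.

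The 250 bases before the RefSeq start sites of the members were searched for the consensus half-site of p53, a decamer on which a pair of p53 molecules sits; it reads the same on both strands. RefSeq promoters of GRCm38.p6 were on hand for 9 members (Trp53inp1 had no entry), with 14 start sites in all, and 5 of the 9 genes held a half-site. Among all 27025 genes with a promoter entry the share was 8.20%, and among 15 matched genes of the p53 target list described below it was 5 of 15, or 33.3%. The 5 promoters are printed 5′ to 3′ on the strand of the gene, with half-sites in capitals, because these are the members whose windows hold one. The first capital lies 73 and 51 bases before the upstream start in Cdkn1a, 186 before the start in Mdm2, 185 in Ccng1, 201 in Bax and 75 in Trp53. Cdkn1a has a second start downstream, whose window (chr17:29093519-29093768) holds no half-site.
Cdkn1a, chr17:29090729-29090978, plus strand: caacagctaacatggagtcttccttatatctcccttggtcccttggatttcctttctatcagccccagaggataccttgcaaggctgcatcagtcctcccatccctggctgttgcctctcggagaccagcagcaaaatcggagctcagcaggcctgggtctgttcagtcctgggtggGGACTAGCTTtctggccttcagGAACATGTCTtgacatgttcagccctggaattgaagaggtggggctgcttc
Mdm2, chr10:117710759-117711008, minus strand: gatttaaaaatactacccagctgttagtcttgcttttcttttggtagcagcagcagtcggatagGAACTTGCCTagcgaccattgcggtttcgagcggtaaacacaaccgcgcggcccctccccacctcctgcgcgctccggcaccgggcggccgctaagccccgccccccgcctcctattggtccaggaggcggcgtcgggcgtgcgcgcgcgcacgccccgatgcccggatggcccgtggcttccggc
Ccng1, chr11:40755287-40755536, minus strand: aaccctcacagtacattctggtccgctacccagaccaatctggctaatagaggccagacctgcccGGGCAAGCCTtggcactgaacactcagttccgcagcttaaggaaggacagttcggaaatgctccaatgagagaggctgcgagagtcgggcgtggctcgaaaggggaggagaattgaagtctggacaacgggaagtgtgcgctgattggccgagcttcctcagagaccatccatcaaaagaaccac
Bax, chr7:45466899-45467148, minus strand: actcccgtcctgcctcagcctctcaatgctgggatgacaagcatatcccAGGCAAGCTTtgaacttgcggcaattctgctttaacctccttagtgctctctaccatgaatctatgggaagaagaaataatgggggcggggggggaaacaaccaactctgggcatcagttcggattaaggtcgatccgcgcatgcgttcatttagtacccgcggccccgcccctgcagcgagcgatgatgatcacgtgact
Trp53, chr11:69580109-69580358, plus strand: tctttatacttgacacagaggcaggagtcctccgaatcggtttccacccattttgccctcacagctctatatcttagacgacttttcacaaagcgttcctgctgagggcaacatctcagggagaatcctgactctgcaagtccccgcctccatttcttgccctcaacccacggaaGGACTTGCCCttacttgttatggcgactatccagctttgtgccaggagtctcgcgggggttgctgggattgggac
The promoters of Bbc3, Bcl2, Bcl2l1 and Mcl1 held no such decamer in these windows. A match of letters is a description of the sequence and shows no binding.

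Bax had the highest and Bcl2 the lowest FPKM of the 10 genes in each table, by the median over libraries. Over the 19 libraries Bax ranged between 21.0 and 121 FPKM with a median of 37.9, and Bcl2 between 0.44 and 1.27 FPKM with a median of 0.64. Of the other death regulators Mcl1 (17.1 to 53.6, median 28.8 FPKM) and Bcl2l1 (10.7 to 39.7, median 20.8 FPKM) were close in level, and Bbc3 was lower at 2.28 to 11.7 FPKM (median 4.30). Among the p53 group Ccng1 ran between 14.9 and 59.9 FPKM (median 31.8) and Cdkn1a between 12.4 and 76.0 FPKM (median 22.5). Mdm2 (6.38 to 33.0, median 13.6 FPKM), Trp53inp1 (4.88 to 19.2, median 11.7 FPKM) and Trp53 (6.55 to 27.4, median 11.0 FPKM) overlapped in range. The tables were made separately, so a level is read within its table only. Ranked by their medians, Bax, Ccng1, Mcl1, Bcl2l1 and Cdkn1a took the first 5 places in every table, in varying order. Neighbours in that order, such as Ccng1 and Mcl1, were within the spread of libraries in the WT table.

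In the 5 WT libraries, which the study's tables set against no other group, Cdkn1a was lowest at 14.4 FPKM, had a median of 18.9 and reached 29.0 FPKM. Trp53inp1 ran between 4.88 and 13.6 FPKM with a median of 6.40, and Ccng1 between 14.9 and 34.8 FPKM with a median of 20.2. As deposited, replicate 4 held the highest value of Trp53, Mdm2, Ccng1, Trp53inp1, Bax and Bcl2l1, whereas replicate 5 held that of Cdkn1a, Bbc3 and Mcl1. The divisor of median scaling was 1.25 for replicate 4 and 1.16 for replicate 5, against 0.771 to 1.08 for the others. Which replicate is highest therefore depends on the scale. The median of Trp53 was 10.3 FPKM (6.55 to 11.7), that of Mdm2 was 10.0 FPKM (6.38 to 15.8), and that of Bax was 25.4 FPKM (21.0 to 38.3). Bcl2l1 had a median of 12.5 FPKM (10.7 to 17.7), Mcl1 of 20.8 FPKM (17.1 to 24.6), Bbc3 of 2.84 FPKM (2.28 to 4.69) and Bcl2 of 0.80 FPKM (0.56 to 0.93). A list of 12 acinar genes, digestive enzymes of the exocrine pancreas, took 4.83 to 33.3% of summed FPKM in these libraries, and its part in the spread was not tested.

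**Figure D1:**
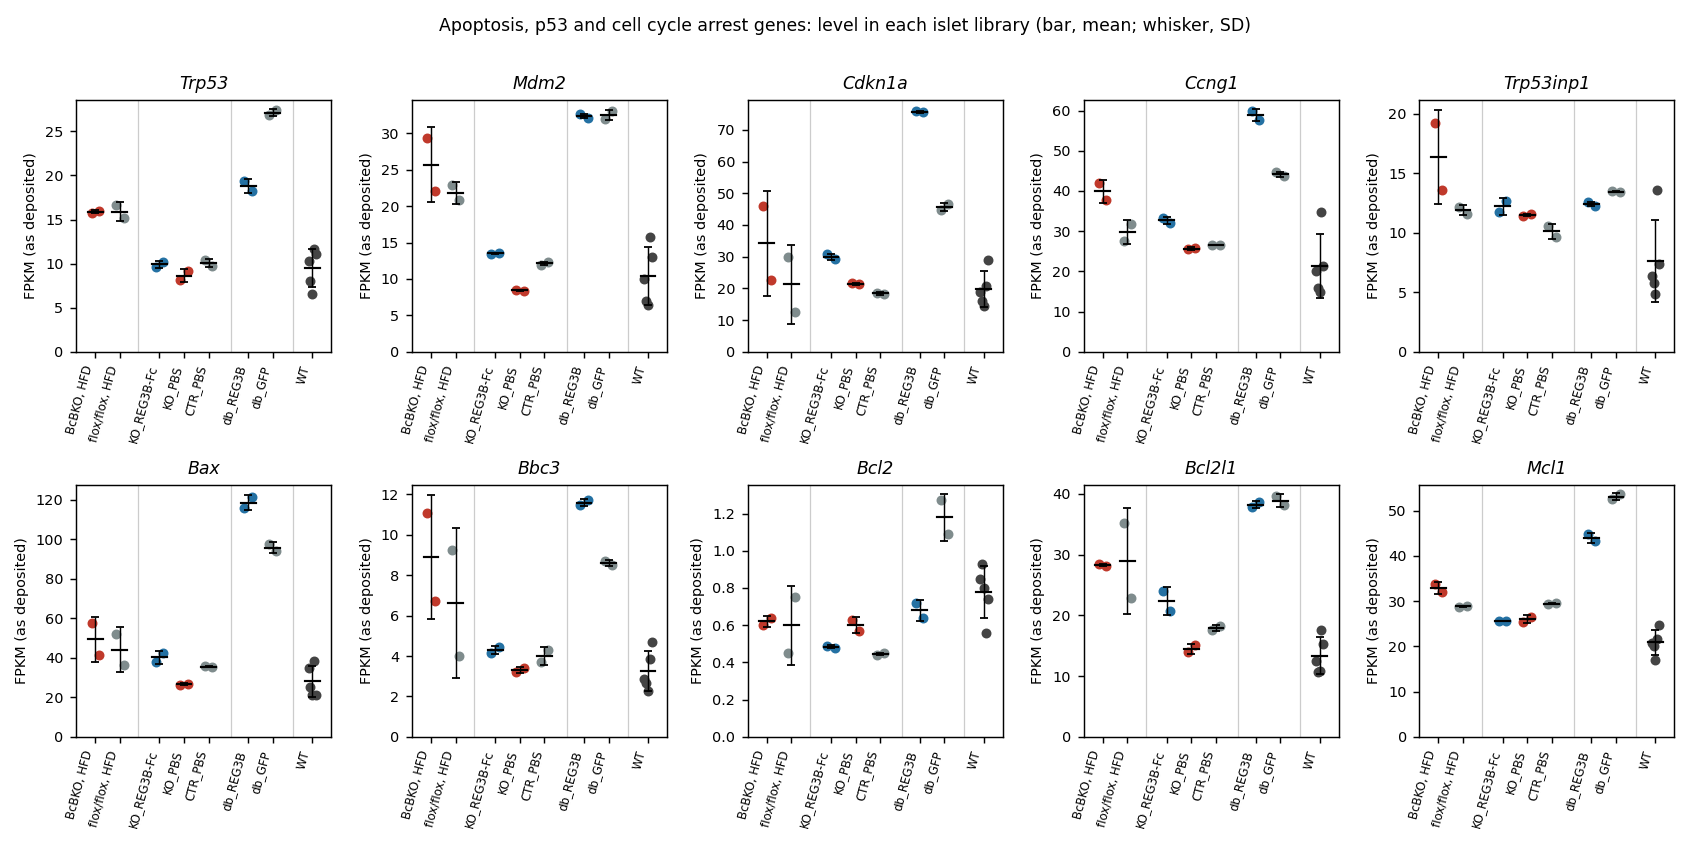
FPKM as deposited of the 10 genes (vertical axis, from 0) in each islet library, by group; points are libraries, horizontal bars the group mean and whiskers the SD (n = 2 per group, 5 for WT), with grey lines between the tables. Cdkn1a, Ccng1, Bax and Bbc3 are higher in both db_REG3B libraries than in db_GFP, and the HFD libraries of a group lie far apart for Cdkn1a, Bax and Bbc3.

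The first comparison asked what the beta-cell ablation changed in islets of mice on HFD, and no member passed. Of the 10 genes 9 were tested (Bcl2, at 0.60 and 0.64 FPKM in BcBKO and 0.45 and 0.75 FPKM in flox/flox, was below the filter of 1 FPKM in 2 libraries), and 0 passed by limma, where 0.00865% of 11560 genes did. At an unadjusted p under 0.05 none of the 9 members passed either, against 2.55% of genes, and the authors' deposited table called 0 members and 0.164% of its genes. Cdkn1a measured 46.0 and 22.5 FPKM in BcBKO and 30.0 and 12.4 FPKM in flox/flox. The groups overlapped, and the change was 0.62 ± 0.48 (limma, adjusted p = 1.000, 95% interval -0.62 to 1.85). It ran between 0.048 and 1.19 when single libraries were left out. Bbc3, at 11.1 and 6.72 FPKM in BcBKO and 9.23 and 3.99 FPKM in flox/flox, overlapped in the same way. In both groups replicate 1 exceeded replicate 2 for Cdkn1a, Bbc3 and Bax, and the acinar list took 2.64 to 2.69% of summed FPKM in BcBKO against 1.73% in replicate 1 and 6.43% in replicate 2 of flox/flox; its part in these values was not tested.

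Ccng1, Trp53inp1 and Mcl1 were higher in both BcBKO libraries than in either flox/flox library on both scales. On deposited FPKM 25.3% of tested genes were so, and after scaling 13.7%. Ccng1 measured 41.9 and 37.8 FPKM in BcBKO and 27.6 and 31.8 FPKM in flox/flox (change 0.33 ± 0.14, limma adjusted p = 1.000). Trp53inp1 measured 19.2 and 13.6 FPKM in BcBKO and 12.2 and 11.6 FPKM in flox/flox, and Mcl1 33.7 and 32.0 FPKM in BcBKO and 28.8 in both flox/flox libraries. Trp53 itself was nearly level, with 15.8 and 16.0 FPKM in BcBKO and 16.7 and 15.2 FPKM in flox/flox and a 95% interval of the change between -0.36 and 0.18. After scaling both BcBKO libraries (15.1 and 15.6) were below both flox/flox libraries (16.8 and 16.1) for Trp53, as were 13.8% of tested genes. The intervals of Mdm2 (-0.27 to 0.52), Bax (-0.49 to 0.64), Bbc3 (-0.62 to 1.33) and Bcl2l1 (-0.59 to 0.41) hold both directions. With 2 libraries a group, changes of the size seen here for Cdkn1a were not separable from the spread.

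The second comparison, KO_PBS against CTR_PBS, asked what the KO label changes under saline. Relative to the median gene, Cdkn1a, Trp53inp1, Ccng1, Mcl1, Trp53 and Bcl2l1 rose, and Mdm2, Bax and Bbc3 did not pass. After scaling 6 of 9 tested members were higher and 0 lower, against 24.6% of 11789 genes higher and 20% lower. On FPKM as deposited, where the median gene was lower in KO_PBS, 2 members (Cdkn1a and Trp53inp1) were higher and 6 lower, against 8.66% of genes higher and 81.5% lower, so the direction of Trp53, Mdm2, Ccng1, Bax, Bbc3, Bcl2l1 and Mcl1 depends on the scale. The 3 groups of this table share 1 fit.

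Cdkn1a and Trp53inp1 were higher on both scales. Cdkn1a measured 21.7 and 21.2 FPKM in KO_PBS against 18.6 and 18.1 FPKM in CTR_PBS as deposited, and 28.2 and 28.1 in KO_PBS and 16.8 and 16.6 in CTR_PBS after scaling. Its change was 0.72 ± 0.04 (limma, adjusted p = 2.48e-06) and 0.21 on deposited FPKM, and 7.14% of tested genes moved further in either direction. Trp53inp1 measured 11.4 and 11.6 FPKM in KO_PBS against 10.5 and 9.68 FPKM in CTR_PBS as deposited. Its change was 0.66 ± 0.06 (limma, adjusted p = 4.78e-05), and both KO_PBS libraries were above both CTR_PBS libraries on each scale. So were 36.7% of tested genes after scaling and 9.91% as deposited.

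Ccng1, which measured 25.4 and 25.9 FPKM in KO_PBS against 26.6 and 26.5 FPKM in CTR_PBS, was nearly level as deposited (change -0.047) and higher after scaling (0.46 ± 0.04, limma adjusted p = 3.25e-05). Mcl1, a short-lived survival protein's gene, measured 25.4 and 26.6 FPKM in KO_PBS against 29.4 and 29.5 FPKM in CTR_PBS, with a change of 0.34 after scaling (limma adjusted p = 0.000419) and -0.17 as deposited. Trp53 measured 8.08 and 9.12 FPKM in KO_PBS against 10.4 and 9.78 FPKM in CTR_PBS. Its scaled change of 0.27 (limma adjusted p = 0.0141; -0.21 as deposited) did not pass without CTR_PBS replicate 2 (adjusted p = 0.0859), without KO_PBS replicate 2 (adjusted p = 0.0624) or with no filter (adjusted p = 0.0773). Bcl2l1, with 13.9 and 15.1 FPKM in KO_PBS against 17.6 and 18.2 FPKM in CTR_PBS, changed by 0.21 after scaling (limma adjusted p = 0.035) and by -0.29 as deposited. The scaled call of Bcl2l1 was lost without CTR_PBS replicate 1 (adjusted p = 0.174), CTR_PBS replicate 2 (0.0762) or KO_PBS replicate 2 (0.157), and with no filter (0.159).

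Mdm2, Bax and Bbc3 did not pass here. Mdm2 measured 8.50 and 8.36 FPKM in KO_PBS against 12.0 and 12.3 FPKM in CTR_PBS, its deposited change of -0.48 was close to that of the median gene, and after scaling it was 0.0051 (95% interval -0.10 to 0.11, limma adjusted p = 0.936). Bax, at 26.4 and 27.0 FPKM in KO_PBS against 35.8 and 35.3 FPKM in CTR_PBS, changed by 0.11 after scaling (limma adjusted p = 0.174; -0.40 as deposited). Bbc3 measured 3.22 and 3.43 FPKM in KO_PBS against 3.70 and 4.30 FPKM in CTR_PBS (0.21 after scaling, limma adjusted p = 0.0546; -0.21 as deposited), and it passed without CTR_PBS replicate 2 (adjusted p = 0.028). Bcl2, below the filter, was listed at 0.63 and 0.57 FPKM in KO_PBS against 0.44 and 0.45 FPKM in CTR_PBS. By the authors' deposited values 5 of the 10 members were higher at an adjusted p under 0.05 and 0 lower, against 14.7% and 11.2% of genes: Cdkn1a (log2 fold change 0.71), Trp53inp1 (0.67), Ccng1 (0.44), Mcl1 (0.31) and Bcl2 (0.85).

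Markers of other cell types moved with these changes. Acinar genes took 24.0 to 25.0% of summed FPKM in KO_PBS against 11.5 to 11.7% in CTR_PBS, and beta cell markers took 40.2 to 40.9% against 60.4 to 61.3%. The 12 immune markers summed to 159 to 164 FPKM in KO_PBS against 20.6 to 21.3 FPKM in CTR_PBS, and all 10 that were tested were higher in KO_PBS after scaling; the B cell marker Ms4a1 was at 0 in both CTR_PBS libraries. The 7 stellate markers summed to 44.5 to 44.7 FPKM in KO_PBS against 16.0 to 16.5 FPKM in CTR_PBS. After scaling 3 of 4 tested duct markers and 4 of 5 endothelial markers were higher, and 1 of each was lower. As deposited the duct counts were the same, and 0 endothelial markers were higher and 4 lower. The part of these cells in the members' changes was not tested, and in bulk RNA fewer cells of a type cannot be told apart from less RNA per cell.

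KO_REG3B-Fc was set against KO_PBS to ask what the REG3B-Fc agent changes in KO mice, and it shares the KO_PBS libraries with the comparison above. After scaling 0 members were higher and 5 of 9 lower, against 20.2% of genes higher and 24.7% lower. On deposited FPKM 7 were higher and 0 lower, against 86.2% and 6.97%, so that Trp53, Cdkn1a, Ccng1, Bax, Bbc3, Trp53inp1 and Bcl2l1 turn direction with the scale. Mcl1 fell furthest after scaling, and Mdm2, Bax and Bcl2l1 stayed near the median gene.

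Mcl1 measured 25.5 and 25.6 FPKM in KO_REG3B-Fc and 25.4 and 26.6 FPKM in KO_PBS, level on the deposited scale (change -0.025, limma adjusted p = 0.598) while the median gene was higher. Relative to that gene it fell by 0.64 (SE 0.04, limma adjusted p = 1.13e-05). Trp53inp1, at 11.7 and 12.7 FPKM in KO_REG3B-Fc and 11.4 and 11.6 FPKM in KO_PBS, changed by -0.51 after scaling (limma adjusted p = 0.000242) and by 0.079 as deposited. Trp53 measured 9.66 and 10.2 FPKM in KO_REG3B-Fc and 8.08 and 9.12 FPKM in KO_PBS (change -0.38, limma adjusted p = 0.00256; 0.19 as deposited). Ccng1 measured 33.3 and 32.0 FPKM in KO_REG3B-Fc and 25.4 and 25.9 FPKM in KO_PBS (change -0.28, limma adjusted p = 0.000717; 0.34 as deposited).

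Of the 5 genes called lower, Cdkn1a was the 1 that lost its call when a library was left out. It measured 30.7 and 29.3 FPKM in KO_REG3B-Fc and 21.7 and 21.2 FPKM in KO_PBS, a change of 0.46 as deposited and of -0.15 after scaling (limma adjusted p = 0.0166). The scaled call did not hold without KO_REG3B-Fc replicate 1 (adjusted p = 0.0503) or replicate 2 (adjusted p = 0.0921), and the authors' deposited table gives -0.13 at an adjusted p of 0.32. Mdm2, with 13.5 and 13.6 FPKM in KO_REG3B-Fc and 8.50 and 8.36 FPKM in KO_PBS, changed by 0.044 (95% interval -0.061 to 0.15) after scaling and by 0.62 as deposited. Bax, at 37.9 and 42.5 FPKM in KO_REG3B-Fc, and Bcl2l1, at 24.0 and 20.8 FPKM there, were higher than in KO_PBS as deposited and had scaled intervals around 0 (-0.19 to 0.099 for Bax, -0.16 to 0.15 for Bcl2l1). Bbc3, at 4.17 and 4.44 FPKM in KO_REG3B-Fc and 3.22 and 3.43 FPKM in KO_PBS, did not pass after scaling (change -0.21, limma adjusted p = 0.0576; 0.29 as deposited), but it did in a fit on these 4 libraries alone (adjusted p = 0.0423). The authors' deposited table has 0 members higher and 5 lower (Trp53, Ccng1, Mcl1, Trp53inp1 and Bcl2), against 10.2% and 13.9% of genes. Bcl2 was listed at 0.49 and 0.48 FPKM in KO_REG3B-Fc and 0.63 and 0.57 FPKM in KO_PBS. The acinar share was 9.84 to 9.87% in KO_REG3B-Fc against 24.0 to 25.0% in KO_PBS. The immune sum was 29.1 to 29.3 FPKM against 159 to 164 FPKM. After scaling the 12 acinar markers and all 10 tested immune markers were lower. So were 5 of 6 tested stellate, 3 of 4 duct and 4 of 5 endothelial markers, while 1 duct and 1 endothelial marker were higher. As deposited all 5 endothelial markers were higher. Beta cell markers took 60.7 to 61.0% of summed FPKM against 40.2 to 40.9%, with 6 of 9 higher and 0 lower after scaling. The part of these cells in the members' changes was not tested.

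Set against CTR_PBS, where the median gene moved little, KO_REG3B-Fc had higher Cdkn1a and Ccng1 and lower Mcl1. That is 2 of 9 members higher and 1 lower, against 5.47% and 5.3% of genes; on deposited FPKM it was 4 higher (Trp53inp1 and Bcl2l1 added) and 1 lower, against 16.8% and 2.87%. Cdkn1a, at 30.7 and 29.3 FPKM in KO_REG3B-Fc and 18.6 and 18.1 FPKM in CTR_PBS, changed by 0.58 ± 0.04 (limma, adjusted p = 8.7e-05), and 1.41% of tested genes changed more. It passed in each fit with a library left out. Mcl1, at 25.5 and 25.6 FPKM in KO_REG3B-Fc and 29.4 and 29.5 FPKM in CTR_PBS, changed by -0.30 ± 0.04 (limma, adjusted p = 0.00481) and missed the threshold only without CTR_PBS replicate 2 (adjusted p = 0.0514), when Cdkn1a was the 1 member called. Ccng1, at 33.3 and 32.0 FPKM in KO_REG3B-Fc and 26.6 and 26.5 FPKM in CTR_PBS (change 0.19, limma adjusted p = 0.0201), lost its call without any 1 of the 4 libraries (adjusted p = 0.0826 to 0.143).

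The other members did not pass in KO_REG3B-Fc against CTR_PBS after scaling. Trp53 changed by -0.11 (95% interval -0.27 to 0.047), Mdm2 by 0.050 (-0.056 to 0.16), Bax by 0.069 (-0.074 to 0.21) and Bbc3 by 0.0038 (-0.17 to 0.18), with intervals that hold 0. Trp53inp1 (0.15, limma adjusted p = 0.151), Bcl2l1 (0.20, limma adjusted p = 0.101) and Mdm2 were higher in both KO_REG3B-Fc libraries than in either CTR_PBS library on both scales. So were 28.5% of tested genes after scaling and 54.4% as deposited. Trp53 was lower in both KO_REG3B-Fc libraries after scaling, as were 29.2% of tested genes, and overlapped as deposited. Acinar genes took 9.84 to 9.87% of summed FPKM in KO_REG3B-Fc and 11.5 to 11.7% in CTR_PBS, beta cell markers 60.7 to 61.0% and 60.4 to 61.3%, and the immune sum was 29.1 to 29.3 FPKM in KO_REG3B-Fc and 20.6 to 21.3 FPKM in CTR_PBS. The 7 stellate markers summed to 25.3 to 27.4 FPKM in KO_REG3B-Fc and 16.0 to 16.5 FPKM in CTR_PBS, with 4 of 6 tested higher and 0 lower after scaling (median 0.54), and their part in the changes of Cdkn1a, Ccng1 and Mcl1 was not tested. Cdkn1a was higher than in CTR_PBS in both KO groups, after scaling and as deposited, in comparisons that share the CTR_PBS libraries.

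**Figure D2:**
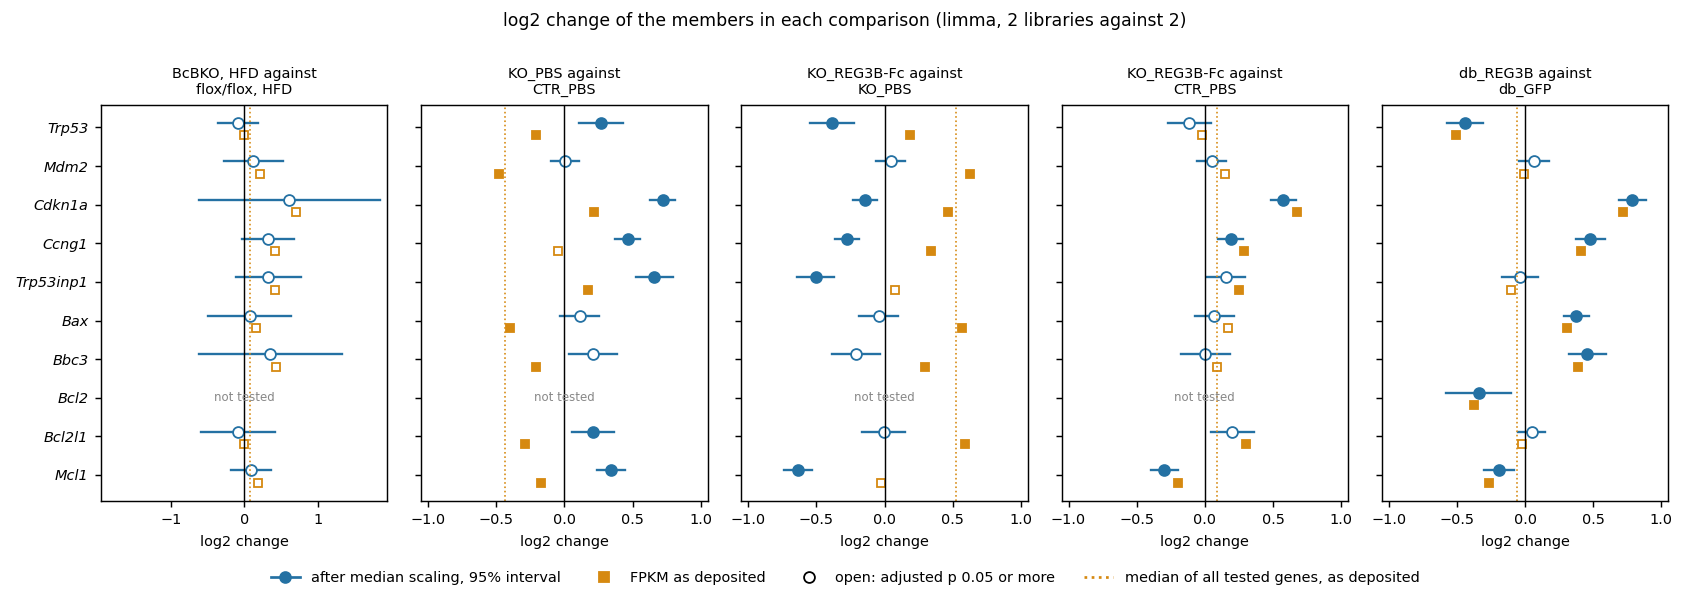
log2 change of each member in the 5 comparisons (horizontal axis, positive meaning higher in the first-named group; the HFD panel has a wider axis); circles with lines are median-scaled values with 95% intervals, squares FPKM as deposited, filled where the adjusted p was under 0.05, and the dotted line is the deposited median of all tested genes. In both comparisons with KO_PBS the circles and squares lie on opposite sides of 0 for most members, while Cdkn1a is above 0 on both scales in KO_PBS and KO_REG3B-Fc against CTR_PBS and in db_REG3B against db_GFP, where the filled Bcl2 met the filter through db_GFP alone.

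The largest set of changes that kept its direction on both scales was in db_REG3B against db_GFP, the comparison that asked what REG3B changes in db islets. The arrest gene Cdkn1a, the p53 target Ccng1 and the death genes Bax and Bbc3 rose, while Trp53 and Mcl1 fell. That is 4 members higher and 2 lower, against 20.7% of 12507 genes higher and 25.6% lower, and the deposited scale gave the same 4 and 2 genes, against 12.2% and 30.8%. Bcl2 met the filter through the db_GFP libraries alone, where it is high, so it is left out of these counts and described without a test. Mdm2, Trp53inp1 and Bcl2l1 did not pass. The authors' deposited table also has these 4 genes higher and these 2 lower, with Bcl2 lower as well, against 12.3% and 15.1% of genes.

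Cdkn1a measured 76.0 and 75.5 FPKM in db_REG3B and 44.8 and 46.7 FPKM in db_GFP. This was a change of 0.79 ± 0.04 (limma, adjusted p = 5.93e-06), exceeded in either direction by 8.24% of tested genes. Ccng1 measured 59.9 and 57.8 FPKM in db_REG3B and 44.6 and 43.7 FPKM in db_GFP (change 0.48 ± 0.05, limma adjusted p = 0.000113). Bax, the effector that forms pores in the mitochondrial membrane, measured 116 and 121 FPKM in db_REG3B and 97.8 and 94.0 FPKM in db_GFP (change 0.38 ± 0.04, limma adjusted p = 0.000139). Bbc3 measured 11.5 and 11.7 FPKM in db_REG3B and 8.73 and 8.49 FPKM in db_GFP (change 0.46 ± 0.06, limma adjusted p = 0.000437). For each of these 4 genes both db_REG3B libraries were above both db_GFP libraries, as were 36.8% of tested genes after scaling.

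Trp53 measured 19.3 and 18.2 FPKM in db_REG3B and 26.8 and 27.4 FPKM in db_GFP (change -0.44 ± 0.06, limma adjusted p = 0.000502). The transcript of p53 fell while those of 4 of its textbook targets rose, and its targets Mdm2 and Trp53inp1 did not pass. Mcl1 measured 44.8 and 43.2 FPKM in db_REG3B and 52.6 and 53.6 FPKM in db_GFP (change -0.19 ± 0.05, limma adjusted p = 0.0112), and it missed the threshold without db_GFP replicate 2 (adjusted p = 0.0526). Bcl2 was listed at 0.72 and 0.64 FPKM in db_REG3B and 1.27 and 1.09 FPKM in db_GFP. Mdm2, at 32.6 and 32.2 FPKM in db_REG3B and 32.0 and 33.0 FPKM in db_GFP, had an interval of -0.045 to 0.18, and its sign turned on the deposited scale (-0.0059). Bcl2l1 measured 37.8 and 38.6 FPKM in db_REG3B and 39.7 and 38.1 FPKM in db_GFP (interval -0.053 to 0.15; -0.024 as deposited), and Trp53inp1 12.6 and 12.3 FPKM in db_REG3B and 13.5 and 13.4 FPKM in db_GFP (interval -0.17 to 0.092).

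Levels of cell type markers differed between the db groups. Beta cell markers took 59.5 to 59.7% of summed FPKM in db_REG3B and 40.6 to 40.8% in db_GFP. The 7 stellate markers, collagens among them, summed to 227 to 240 FPKM in db_REG3B and 1303 to 1320 FPKM in db_GFP. Of the 12 immune markers 10 had values here, and they summed to 236 to 245 FPKM in db_REG3B and 535 to 543 FPKM in db_GFP. In each db_GFP library 2 of them, Ms4a1 included, were at 0. All 7 stellate markers and 6 of 7 tested immune markers were lower in db_REG3B, and 1 immune marker was higher. Of 9 beta cell markers 8 were higher. All 5 endothelial markers and all 4 tested duct markers were lower in db_REG3B. The acinar list took at most 0.0914% in any db library. The part of these cells in the members' changes was not tested.

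Ratios of members within a library do not depend on the scaling, and they are given as a description, the pairs having been chosen after the values were seen. Cdkn1a over Trp53 was 3.93 and 4.15 in db_REG3B and 1.67 and 1.70 in db_GFP. In the table with saline controls Cdkn1a over Trp53 was 3.17 and 2.87 in KO_REG3B-Fc, 2.69 and 2.33 in KO_PBS and 1.79 and 1.85 in CTR_PBS, and the 3 groups did not overlap. On HFD it was 2.92 and 1.41 in BcBKO and 1.80 and 0.819 in flox/flox, and those groups did overlap. Over the WT libraries it ran between 1.78 and 2.63 with a median of 1.99. How many other gene pairs keep the 3 groups of the table with saline controls apart was not computed. Cdkn1a over Mdm2 sets p21 against the ligase that p53 also induces. It was 2.28 and 2.16 in KO_REG3B-Fc, 2.55 and 2.54 in KO_PBS and 1.56 and 1.47 in CTR_PBS. In the db table it was 2.33 and 2.35 in db_REG3B against 1.40 and 1.41 in db_GFP. Its WT libraries ran between 1.32 and 2.30 with a median of 2.23.

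Bax over Bcl2l1, a pore former over an inhibitor of it, was 3.07 and 3.14 in db_REG3B and 2.47 in both db_GFP libraries. It was 1.58 and 2.04 in KO_REG3B-Fc, 1.90 and 1.79 in KO_PBS and 2.03 and 1.94 in CTR_PBS, where the 3 groups lay close. Mcl1 over Bcl2l1, both inhibitors, was 1.07 and 1.23 in KO_REG3B-Fc, below the 1.83 and 1.76 of KO_PBS and the 1.67 and 1.62 of CTR_PBS. It was 1.18 and 1.12 in db_REG3B and 1.33 and 1.41 in db_GFP. Over the WT libraries Bax over Bcl2l1 ran between 1.38 and 2.78 with a median of 2.17, a wider span than between the groups of the table with saline controls.

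**Figure D3:**
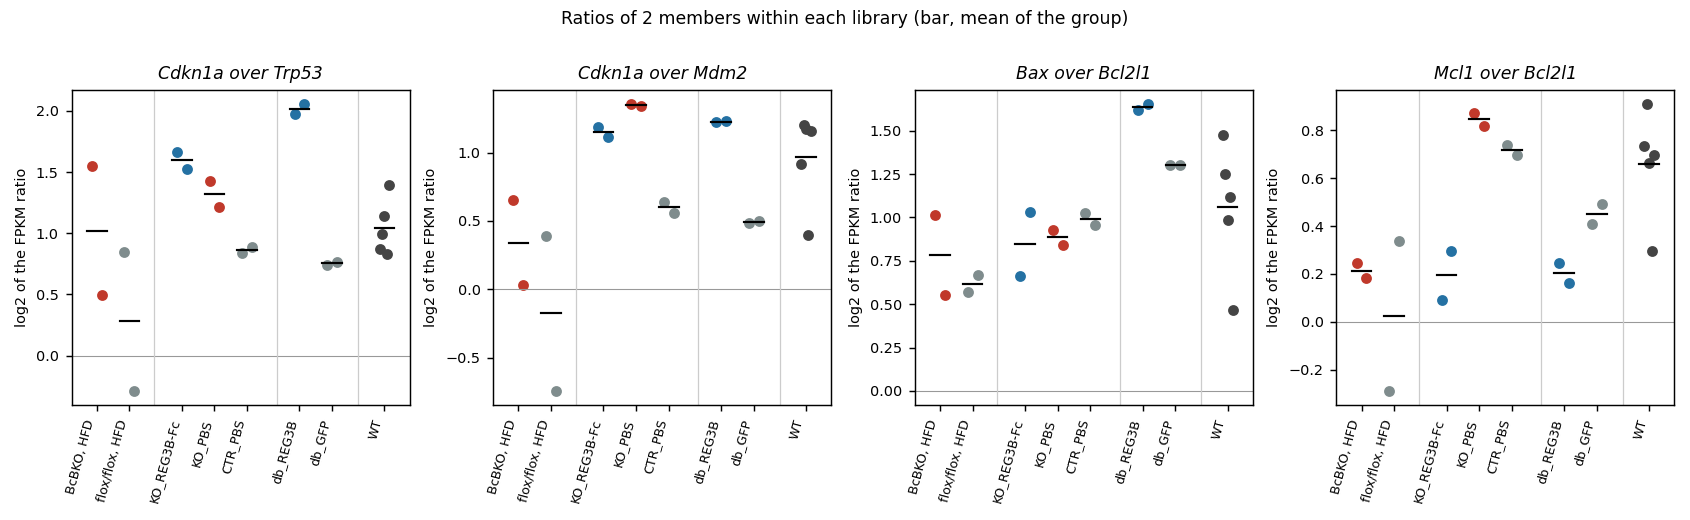
log2 of the FPKM ratio of 2 members in each library (vertical axis; 0 means equal FPKM), by group, with bars at the group mean. Cdkn1a over Trp53 and Cdkn1a over Mdm2 are higher in both db_REG3B libraries than in db_GFP and in both KO groups than in CTR_PBS, and Mcl1 over Bcl2l1 is lowest in KO_REG3B-Fc among the 3 groups of its table.

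Of 95 other genes in 8 lists of the same pathways, between 82 and 87 were tested per comparison. For BcBKO against flox/flox on HFD 0 of 83 passed by limma, 0 had an unadjusted p under 0.05, and 0 of 87 were called in the authors' deposited table. For KO_PBS against CTR_PBS 29 of 82 were higher and 13 lower after scaling, where 24.6% and 20% of all genes were, and 10 higher and 54 lower as deposited, where 8.66% and 81.5% were. For KO_REG3B-Fc against KO_PBS the counts were 13 higher and 28 lower, beside 20.2% and 24.7% of all genes, and 66 and 7 as deposited, beside 86.2% and 6.97%. For KO_REG3B-Fc against CTR_PBS they were 4 higher and 7 lower, beside 5.47% and 5.3%, and 15 and 4 as deposited, beside 16.8% and 2.87%. For db_REG3B against db_GFP 28 of 87 were higher and 24 lower, beside 20.7% and 25.6%, and 21 and 26 as deposited, beside 12.2% and 30.8%. Of the 24 lower in db_REG3B, 5 (Chek2, Pmaip1, Bcl2a1d, Fas and Tnfrsf10b) met the filter only with the db_GFP libraries, where they are high. Without them 19 are left. Bcl2a1d met it likewise through KO_PBS alone in the table with saline controls. Without it 28 are higher in KO_PBS against CTR_PBS and 27 lower in KO_REG3B-Fc against KO_PBS. The filter favoured the calls of these genes, so the lists below also give counts without them, and their values are descriptions. The median change over the lists together was 0.051, 0.060, -0.11, 0.013 and 0.042 in this order of comparisons, near 0 as for all genes.

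Among the p53 targets 8 of 16 were higher and 3 lower in KO_PBS against CTR_PBS (list median 0.18), beside 24.6% and 20% of all genes. As deposited 5 were higher and 10 lower (list median -0.30). Sesn1, a stress-induced regulator of growth signalling, changed by 0.99 (20.7 FPKM in KO_PBS, 14.5 FPKM in CTR_PBS; limma adjusted p = 1.03e-06), and Perp, a membrane protein gene, by 0.92 (12.9 and 9.40 FPKM; limma adjusted p = 3.09e-05). Phlda3, an inhibitor of AKT, changed by 0.87 and Ephx1, an epoxide hydrolase, by 0.64, and these 4 genes were higher as deposited too. For KO_REG3B-Fc against KO_PBS 3 targets were higher and 7 lower, beside 20.2% and 24.7% of all genes (10 and 3 as deposited), with Perp at -1.29, Sesn1 at -0.79 and Phlda3 at -0.76, each lower on both scales. For KO_REG3B-Fc against CTR_PBS 1 was higher and 2 lower, beside 5.47% and 5.3% (3 and 1 as deposited), Perp changing by -0.37 (limma adjusted p = 0.0196) and Sesn1 by 0.20 (limma adjusted p = 0.027). In db_REG3B against db_GFP 9 of 17 targets were higher and 4 lower, beside 20.7% and 25.6% (8 and 4 as deposited). Plk3, a stress kinase, averaged 86.3 ± 2.21 FPKM in db_REG3B and 32.2 ± 0.24 FPKM in db_GFP (SD, n = 2 each; change 1.47, limma adjusted p = 1.6e-07), and Gdf15 (0.67) and Aen (0.59) were higher while Plk2 (-0.64) was lower.

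The p53 regulators were 0 higher and 4 of 10 lower in KO_PBS against CTR_PBS, beside 24.6% and 20% of all genes (0 and 10 as deposited), among them the damage kinase gene Atm (-0.34, 1.57 FPKM in KO_PBS against 3.18 FPKM in CTR_PBS) and Hipk2 (-0.31). In KO_REG3B-Fc against KO_PBS 7 were higher and 0 lower, beside 20.2% and 24.7% (10 and 0 as deposited). Both genes were lower and higher likewise on deposited FPKM. Of the 10 tested, 0 passed in KO_REG3B-Fc against CTR_PBS by limma, with 3 at an unadjusted p under 0.05 (3 were higher as deposited). In db_REG3B against db_GFP 3 of 11 were higher and 1 lower, beside 20.7% and 25.6% (0 and 1 as deposited). The lower gene is the checkpoint kinase gene Chek2, which met the filter through db_GFP alone, at 0.465 FPKM in db_REG3B and 1.49 FPKM in db_GFP. Without it no gene of this list is lower after scaling.

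Of the BH3-only genes, the sensors that set off BAX and BAK, 2 of 8 were higher and 5 lower in db_REG3B, beside 20.7% and 25.6% of all genes, and the deposited counts were the same. Bnip3, which also acts in mitophagy, was at 223 FPKM in db_REG3B and 97.2 FPKM in db_GFP (change 1.26, limma adjusted p = 3.98e-07). Bid (-0.53) and Bmf (-0.49) were lower, unlike Bbc3. Pmaip1 met the filter through db_GFP alone, and without it 4 genes of this list are lower. Of the other BCL2 family genes 2 of 6 were higher and 4 lower (1 and 4 as deposited), the pore former Bak1 at 6.83 FPKM in db_REG3B and 12.4 FPKM in db_GFP (change -0.70, limma adjusted p = 0.000124) and its relative Bok changing by -0.84, so Bax rose where Bak1 and Bok fell. Bcl2a1b (-0.85) also fell, and it and Bcl2a1d are near-identical copies whose reads the counting may have split. Without Bcl2a1d, 3 of these family genes are lower in db_REG3B. In KO_PBS against CTR_PBS the BH3-only genes counted 2 higher and 1 lower of 7 (0 and 5 as deposited), with Bid at 0.37. The other family genes counted 4 higher, or 3 without Bcl2a1d, and 0 lower of 6 (3 and 2 as deposited). Bcl2a1b changed by 1.11 and Bok by 0.66, and 24.6% and 20% of all genes were called. In KO_REG3B-Fc against KO_PBS the BH3-only genes counted 0 higher and 1 lower (6 and 0 as deposited). The other family genes counted 0 higher and 4 lower, or 3 without Bcl2a1d (3 and 3 as deposited), beside 20.2% and 24.7% of all genes. Against CTR_PBS 0 of either list passed by limma after scaling, with 2 and 0 at an unadjusted p under 0.05 (1 and 0 higher as deposited).

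Caspase and receptor genes had calls in both directions. In db_REG3B 2 of 14 caspase and apoptosome genes were higher and 3 lower, beside 20.7% and 25.6% of all genes (2 and 4 as deposited), with the initiator Casp8 changing by -0.54 and the nuclease gene Dffb by 0.74. Of 11 death receptor and IAP genes (inhibitors of apoptosis) 1 was higher and 5 lower on either scale, with Birc3 changing by -0.51. Fas, at 0.405 FPKM in db_REG3B and 1.57 FPKM in db_GFP, and Tnfrsf10b are the 2 of these 5 that met the filter only with the db_GFP libraries. Without them 3 are lower after scaling. In KO_PBS against CTR_PBS the counts were 5 higher and 1 lower of 13 caspase genes and 3 higher and 0 lower of 10 receptor genes, beside 24.6% and 20% of all genes, with Birc3 at 0.71. They turn with the scale, with 0 higher and 9 lower caspase genes and 1 higher and 8 lower receptor genes as deposited. In KO_REG3B-Fc against KO_PBS they were 0 higher and 3 lower (11 and 0 as deposited), and 1 higher and 3 lower (8 and 1 as deposited), beside 20.2% and 24.7%. Against CTR_PBS 0 of 13 caspase genes passed by limma (2 at an unadjusted p under 0.05; 1 higher as deposited) and 2 receptor genes were lower (1 as deposited), beside 5.47% and 5.3%; Tnfrsf1a, a TNF receptor, changed by -0.47 (15.4 FPKM in KO_REG3B-Fc, 20.2 FPKM in CTR_PBS; limma adjusted p = 0.00162) and Ripk1 by -0.27.

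The CDK inhibitor and arrest list counted 5 of 12 higher and 0 lower in KO_PBS against CTR_PBS after scaling, beside 24.6% and 20% of all genes, and 1 higher and 4 lower as deposited. Gadd45b changed most (1.01; 21.9 FPKM in KO_PBS, 15.2 FPKM in CTR_PBS). In KO_REG3B-Fc against KO_PBS the list counted 0 higher and 6 lower after scaling, beside 20.2% and 24.7%, and 11 higher and 0 lower as deposited. Gadd45b was, like Cdkn1a, higher in KO_REG3B-Fc than in CTR_PBS, at 26.2 and 15.2 FPKM (change 0.65, limma adjusted p = 0.000105), with 2 list genes higher and 0 lower (4 and 0 as deposited), beside 5.47% and 5.3% of all genes. In db_REG3B 2 were higher and 2 lower (1 and 3 as deposited), beside 20.7% and 25.6%, with Cdkn2c (p18) at 0.61 and Ccng2, a relative of Ccng1, at -0.27. The cycling markers summed to 46.9 to 49.2 FPKM in db_REG3B and 54.4 to 56.5 FPKM in db_GFP, with 3 of 4 tested lower. In the table with saline controls they summed to 22.1 to 22.6 FPKM in KO_REG3B-Fc, 22.8 FPKM in both KO_PBS libraries and 18.7 to 19.4 FPKM in CTR_PBS. After scaling 4 of 4 were higher in KO_PBS than in CTR_PBS, 4 of 4 lower in KO_REG3B-Fc than in KO_PBS and 2 higher in KO_REG3B-Fc than in CTR_PBS. On HFD they summed to 34.2 to 41.5 FPKM in BcBKO and 27.0 to 29.4 FPKM in flox/flox (median change 0.66), where 0 of 6 passed by limma and 4 had an unadjusted p under 0.05, against 2.55% of all genes. The part of cycling cells in the members' changes was not tested.

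The ER stress death genes were 7 of 8 higher and 0 lower in db_REG3B, beside 20.7% and 25.6% of all genes. As deposited the counts were 6 and 0. The list median was 0.39, against 0.0070 for all tested genes. This list, like the others, was chosen with earlier results of these data known. Beta cell markers took 59.5 to 59.7% of summed FPKM in db_REG3B and 40.6 to 40.8% in db_GFP. The part of beta cells in these counts was not tested. Ero1a, an ER oxidase, changed by 0.86 (70.9 FPKM in db_REG3B, 40.7 FPKM in db_GFP; limma adjusted p = 2.64e-06), Trib3 by 0.77, Ddit3 (CHOP) by 0.64 and Atf4 by 0.40 (298 and 238 FPKM). In KO_PBS against CTR_PBS 2 were higher and 4 lower (0 and 6 as deposited), beside 24.6% and 20% of all genes, with Chac1, a glutathione-cleaving enzyme induced by ATF4, at -0.33. KO_REG3B-Fc against CTR_PBS had 1 higher and 3 lower (3 and 2 as deposited), beside 5.47% and 5.3%, with Chac1 changing by -0.82 (25.6 FPKM in KO_REG3B-Fc, 42.8 FPKM in CTR_PBS; limma adjusted p = 2.6e-05), and KO_REG3B-Fc against KO_PBS had 2 higher and 4 lower, beside 20.2% and 24.7%, and 7 and 0 as deposited.

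**Figure D4:**
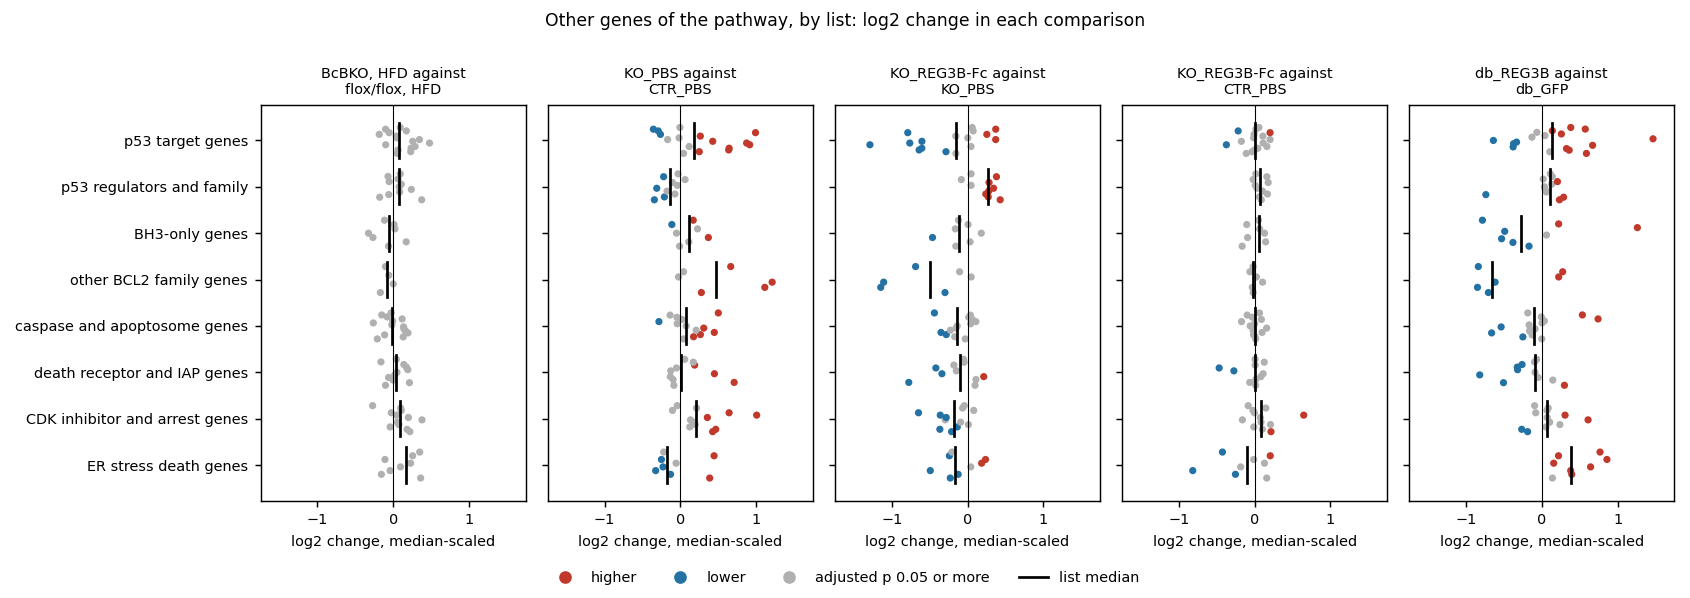
Median-scaled log2 change (horizontal axis) of the tested genes of 8 lists (rows) in the 5 comparisons; each point is a gene, red higher and blue lower at an adjusted p under 0.05, grey not passed, and black bars are list medians. In db_REG3B against db_GFP 7 of 8 ER stress death genes are red and 5 of 8 BH3-only genes blue (Pmaip1, which met the filter through db_GFP alone, among them), and no gene is coloured for BcBKO against flox/flox on HFD.

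For the 9 members tested in all 3 tables with comparisons, which leaves out Bcl2, the most alike genes were sought over their 14 libraries, after centring each table, among 6478 other genes averaging at least 5 FPKM in each table (6479 for Bbc3, which itself averages less in 1 table). Libraries of a group share their condition, so the Pearson r given here describes these libraries. Amigo2 (r 0.98) and the clock gene Per1 (r 0.94) were most like Cdkn1a, the heat shock genes Hspa1a (r 0.96) and Hspa1b (r 0.95), near-identical copies, most like Bax, and Ggt7 and Inpp5b (both r 0.96) most like Bbc3. Spint2 (r 0.96) and Raly (r 0.95) were closest to Trp53, Elovl1 and Psmb10 (both r 0.95) to Mcl1, Ifi27 (r 0.94) and Cldn3 (r 0.93) to Trp53inp1, C9orf72 (r 0.93) and Slco1a6 (r 0.89) to Ccng1, Mau2 (r 0.92) and Map4k2 (r 0.89) to Bcl2l1, and Vps39 (r 0.90) and Rab24 (r 0.89) to Mdm2. No member was among the 2 closest genes of another member.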

How the data were processed

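Mouse islet mRNA was read from both ends on a BGISEQ-500, per the labels' protocols. The authors deposited FPKM per gene for 19 libraries in 4 tables; TPM values, which the authors deposited beside FPKM for the HFD libraries with no word on how they were made, were not used. For 4 comparisons the authors deposited log2 fold changes with raw p-values and p-values adjusted for multiple testing, made with DESeq2 per the file headers of 2 tables and with no tool named for the HFD table. The build is GRCm38.p6 per the submitters' processing notes; aligner and counting program are not given in the sources used here. Read counts were not analysed here, so depth is unknown and no counting intervals were computed; 2 libraries a group limit the precision.

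The members and gene lists were chosen with earlier results of these data known. Genes that reached 1 FPKM in 2 or more libraries of a table were tested with limma 3.58.1 (R 4.3.3, empirical Bayes with trend, two-sided) on log2(FPKM + 1) after median scaling, all groups of a table in 1 fit, with 2 residual degrees of freedom (3 in the table with 6 libraries) and Benjamini-Hochberg adjustment over all genes. The fit was run on simulated data in which few genes changed and the median gene did not shift. The outcome is not reported here, and that setting does not cover the shifts of the median gene in these data. Alternatives were deposited FPKM, a pseudocount of 0.1, no filter, a stricter filter, replicate number as a block, only the 4 libraries compared, and leaving out each library. All 10 members are named, with up to 4 passing genes of each list by size of change, or 2 by smallest p where none passed. Some genes that the rule names are not reported here.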

Additional observations from a re-analysis of the deposited data

How the results depend on the processing

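For KO_PBS against CTR_PBS deposited FPKM called 10624 genes in place of 5262 and turned Trp53 (-0.21), Mdm2 (-0.48), Ccng1 (-0.047), Bax (-0.40), Bbc3 (-0.21), Bcl2l1 (-0.29) and Mcl1 (-0.17). For KO_REG3B-Fc against KO_PBS it called 10979 in place of 5293 and turned Trp53 (0.19), Cdkn1a (0.46), Ccng1 (0.34), Bax (0.57), Bbc3 (0.29), Trp53inp1 (0.079) and Bcl2l1 (0.59). For KO_REG3B-Fc against CTR_PBS it called 5 members in place of 3 and 2315 genes in place of 1270, and for db_REG3B against db_GFP it turned Mdm2 (-0.0059) and Bcl2l1 (-0.024), neither of which passed. With no filter 759 genes passed for KO_REG3B-Fc against CTR_PBS, and Mdm2 for KO_PBS against CTR_PBS (-0.033), Bcl2l1 for KO_REG3B-Fc against KO_PBS (0.019) and Bbc3 for KO_REG3B-Fc against CTR_PBS (-0.0075) turned sign. On HFD 0 genes passed with no filter or the stricter filter, in place of 1. The cause was not tested. A pseudocount of 0.1 turned no member and changed no member's call, and the stricter filter left Bcl2 untested in the db table and brought Bbc3 past the threshold for KO_PBS against CTR_PBS (limma adjusted p = 0.0488). Depth is unknown, so the precision of low values such as those of Bcl2 cannot be given.

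With single libraries left out, the lone library of a group was assumed to vary like the other groups; 0 to 1 genes passed on HFD (0 without either BcBKO library), and for KO_REG3B-Fc against CTR_PBS 463 to 597 genes and 1 to 2 members. Among changes that did not pass, the ranges that crossed 0 were, on HFD, Mdm2 (-0.054 to 0.31), Bax (-0.15 to 0.29), Bbc3 (-0.13 to 0.85) and Bcl2l1 (-0.36 to 0.18). For KO_PBS against CTR_PBS it was Mdm2 (-0.024 to 0.032), for KO_REG3B-Fc against KO_PBS Bax (-0.14 to 0.057) and Bcl2l1 (-0.084 to 0.076), and for KO_REG3B-Fc against CTR_PBS Bax (-0.026 to 0.17) and Bbc3 (-0.091 to 0.095).

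Nothing in the labels says that equal replicate numbers pair the libraries. Replicate differences correlated at 0.67 on HFD and between -0.051 and 0.047 in the other comparisons. With the replicate block 4 genes passed on HFD, where Cdkn1a had its lowest adjusted p (limma, 0.124), Bbc3 passed in both comparisons with KO_PBS (limma adjusted p = 0.0225 against CTR_PBS and 0.0238 for KO_REG3B-Fc) and Bcl2l1 did not in KO_PBS against CTR_PBS (limma adjusted p = 0.0554).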
